A study of Mus musculus with 12 samples.

Results

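The genes described here make cholesterol, control its synthesis and move it between the lysosome and the endoplasmic reticulum. They are 30 of the 16570 genes in the deposited table of mouse macrophage RNA, were chosen by name from pathway membership, and were all found and all passed the filter on low counts. RNA was sequenced in 12 libraries of bone marrow-derived macrophages, the adherent cells grown with the growth factor M-CSF from marrow of C57BL/6J mice aged 6 to 8 weeks. Each of 4 groups held 3 libraries, and every culture received M-CSF at 50 ng/mL. The treatment lasted 2 days by the labels' treatment notes, whereas their growth notes give a longer time with RANKL. The first group received RANKL, the cytokine that turns these macrophages into bone-resorbing osteoclasts, at 100 ng/mL together with RHC80267 at 1 µM. Another received the same RANKL with BMS309403 at 1 µM. The other groups received RANKL alone and M-CSF alone. RHC80267 is known to inhibit diacylglycerol lipase, and BMS309403 to inhibit FABP4, a carrier of fatty acids. Neither inhibitor was tested without RANKL or at another dose, and the labels name no vehicle in the other cultures. The labels also do not say how many mice gave the marrow or whether the 3 libraries of a group are separate cultures, so the p-values reflect the spread of these libraries alone, and that spread may be technical.

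Cells make cholesterol from acetyl-CoA through mevalonate, then isoprenoid diphosphates, then squalene, and then a row of sterols that ends in cholesterol. The isoprenoids also leave this path to be attached to small GTPases, which osteoclasts need to resorb bone, and farnesyl diphosphate synthase is the target of the nitrogen-containing bisphosphonates used against bone loss. Transcription of the path is driven by SREBP factors, which SCAP carries from the endoplasmic reticulum to the Golgi, where a pair of proteases releases them. INSIG proteins hold SCAP back when sterols are plentiful. Cholesterol taken up in lipoprotein particles is freed in the lysosome by the acid lipase and leaves through NPC2 and NPC1.

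Levels are given in CPM, the usual counts-per-million scale, which puts a gene's expected read counts in each library on the same total, after TMM factors had corrected the totals for differences in composition. Differences are log2 fold changes with their SE from 1 edgeR quasi-likelihood fit of all 12 libraries, and a 95% interval is given in its place where no call was made. Calls need a p below 0.05 after Benjamini-Hochberg adjustment across the 12168 genes that entered the fit, and only called genes are said to have risen or fallen. Library totals ran from 17760844 to 18344989 expected counts.

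The libraries carried the markers of their labels. The summed level of 7 osteoclast markers, Acp5 and Ctsk among them, was 15725 to 17770 CPM with RHC80267, 6577 to 7418 CPM with BMS309403, 8055 to 9997 CPM with RANKL alone and 93.3 to 111 CPM with M-CSF alone. The summed level of 6 macrophage markers was 6064 to 6091, 6812 to 7079, 6469 to 6636 and 9049 to 9493 CPM in the same order of groups. Genes listed as markers of other cell types were also detected, and several changed with RHC80267. All 7 neutrophil markers fell with it, to a sum of 671 to 1001 CPM, against 1419 to 1625 CPM with RANKL alone. The sum of 4 B cell markers was 1.36 to 1.72 CPM with RHC80267 and 3.55 to 4.53 CPM with RANKL alone. RHC80267 replicate 1 stood apart by its collagen RNA, with a stromal marker sum of 54.8 CPM, but the whole group was high, at 13.4 to 54.8 CPM with RHC80267 against 4.53 to 12.1 CPM with RANKL alone, and 3 of 5 tested stromal markers rose. The endothelial marker sum was 5.76 to 6.73 CPM with RHC80267 and 15.7 to 19.1 CPM with RANKL alone, and 2 of 2 tested markers fell. Dendritic cell markers summed to 17.2 to 21.9 CPM with RHC80267 and 28.5 to 31.4 CPM with RANKL alone, and mast cell markers to 4.15 to 5.16 and 7.11 to 7.90 CPM. Only 1 of 3 tested dendritic cell markers and 1 of 2 tested mast cell markers fell with RHC80267. The T cell marker sum was 43.7 to 50.3 CPM with RHC80267, 115 to 127 CPM with BMS309403, 77.0 to 97.1 CPM with RANKL alone and 39.1 to 40.7 CPM with M-CSF alone. It consisted almost entirely of Cd4, with 15951 counts over all 12 libraries, against 121 for Cd8a, 7 for Cd3d and 4 for Cd3e. Cd4 fell by 0.94 ± 0.07 with RHC80267, and rose by 0.46 ± 0.06 with BMS309403 and by 1.16 ± 0.07 with RANKL over M-CSF. The NK cell markers Klrb1c and Ncr1 had 34 and 1 counts. Whether the RNA of these markers came from other cells or from the macrophages themselves was not tested, nor was the part of other cells in the results. In bulk RNA, fewer cells of a type and less RNA per cell cannot be told apart. Over all genes tested, 26.9% were called higher and 23% lower with RHC80267.

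Promoter windows are shown for the enzyme genes that responded most to RHC80267, with the letters in capitals that resemble the site SREBP factors bind. RefSeq windows (GRCm38.p6) were matched for 25 of the 30 genes. The motifs were searched on both strands in each window, from 250 bases before to 50 after the annotated start, and the 250 bases before the start are printed 5′ to 3′ on the gene's own strand. Hsd17b7, Cyp51 and Idi1 had the largest changes among matched enzymes, and Hmgcs1 is added because its window held the sterol response letters TCACNCCAC. The capitals mark TCACNCCAC in Hmgcs1 and TCACCTCA in Hsd17b7 and Cyp51, and Idi1 has none. The RefSeq start differs for some genes from the gene span the authors deposited. The printed Idi1 window lies inside its span (8884914 to 8892396), and part of the Hsd17b7 window lies inside its own (169949535 to 169969242).
Hsd17b7, chr1:169969206-169969455, minus strand: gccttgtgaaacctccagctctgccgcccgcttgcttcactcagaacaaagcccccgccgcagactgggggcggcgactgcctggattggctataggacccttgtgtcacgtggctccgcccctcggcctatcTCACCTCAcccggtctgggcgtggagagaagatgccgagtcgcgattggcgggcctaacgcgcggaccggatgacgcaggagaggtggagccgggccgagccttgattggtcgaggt
Cyp51, chr5:4104698-4104947, minus strand: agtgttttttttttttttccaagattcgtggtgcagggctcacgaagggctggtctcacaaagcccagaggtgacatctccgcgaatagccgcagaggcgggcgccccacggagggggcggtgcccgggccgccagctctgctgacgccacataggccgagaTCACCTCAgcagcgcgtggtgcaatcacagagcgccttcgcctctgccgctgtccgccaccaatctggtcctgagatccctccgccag
Idi1, chr13:8885356-8885605, plus strand: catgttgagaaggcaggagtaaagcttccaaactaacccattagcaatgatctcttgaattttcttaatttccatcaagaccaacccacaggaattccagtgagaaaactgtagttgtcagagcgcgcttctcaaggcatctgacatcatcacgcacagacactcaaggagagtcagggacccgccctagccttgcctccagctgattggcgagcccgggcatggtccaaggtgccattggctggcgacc
Hmgcs1, chr13:119690101-119690350, plus strand: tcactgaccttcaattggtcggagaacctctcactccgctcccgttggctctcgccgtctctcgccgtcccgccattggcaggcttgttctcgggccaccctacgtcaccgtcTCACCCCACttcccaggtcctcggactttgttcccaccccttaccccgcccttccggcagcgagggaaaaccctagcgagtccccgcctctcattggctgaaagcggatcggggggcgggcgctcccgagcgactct

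The sterol response letters TCACNCCAC were in the windows of 1 of 25 genes, Hmgcs1, where the match starts 137 bases before the annotated start. The share of all 27025 genes with a RefSeq window that held them was 1.44%. TCACCTCA, chosen after the windows had been read, was in 2 of the 25, starting 117 bases before the start of Hsd17b7 and 88 before that of Cyp51, against 1.37% of all genes. The common promoter boxes were frequent. CCAAT, bound by the factor NF-Y, was in 21 of 25 genes (84.0%) against 41.1% of all genes, and GGGCGG, bound by Sp1, in 22 of 25 (88.0%) against 38.2%. All genes here include many that did not pass the filter on low counts, whereas the 25 all passed it. The shares among genes that passed were not computed. Genes with several annotated starts have several windows and were counted once. A match is a description of the letters and not evidence of binding.

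With RHC80267 added to RANKL, much of the synthesis path fell. Hmgcs1, Idi1, Fdps, all 3 squalene genes and 4 of 8 late sterol genes fell. Hsd17b7 fell by 61.9%, the most of the 30. Srebf2, Srebf1, Insig1 and the sterol carrier Stard4 fell with them, whereas enzymes such as Mvk, Ebp and Dhcr7 were not called. Of the 30 genes 16 fell, 1 rose (Mbtps1) and 13 were not called. Over all genes tested, 23% were called lower and 26.9% higher. The median of the 30 was −0.15, and that of all genes tested was 0.02. The authors' deposited table, which holds their own DESeq2 comparison, called 16 lower and 0 higher at q below 0.05. The count of 16 was the same without RHC80267 replicate 1, the library with the highest stromal marker sum. Leaving out 1 library does not remove the stromal marker difference that the whole group showed, and its part was not tested. The count also held without RHC80267 replicate 2, the lowest of its group in 16 of the 30 genes and in 31.6% of all genes.

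Adding BMS309403 to RANKL left almost every gene uncalled. Lipa, the lysosomal acid lipase, rose by 0.14 on the log2 scale, no gene fell and 29 were not called, where 3.49% of all genes tested were called higher and 3.74% lower. At an unadjusted p below 0.05, 1 was higher and 2 were lower, Hmgcs1 and Hsd17b7. At that threshold 1144 of all 12168 genes tested were higher and 1269 lower. DESeq2, limma-voom and the authors' deposited table also called 0 of the 30 lower. The median was −0.04, and that of all genes tested −0.0056.

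RANKL itself, compared with M-CSF alone, lowered most of the genes. Of the 30, 21 fell, 3 rose (Insig2, Mbtps1 and Npc2) and 6 were not called, where 29.8% of all genes tested were called lower and 31.4% higher. The median was −0.35, and that of all genes tested 0.0028. Insig1 fell by 47.7%, the most of the 30, and all 3 isoprenoid and all 3 squalene genes fell. The authors' deposited table called 20 lower and 1 higher.

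The inhibitors were compared directly as RHC80267 minus BMS309403, both under RANKL. Of the 30 genes, 16 were lower with RHC80267, 1 was higher (Mbtps1) and 13 were not called, where 25.5% of all genes tested were called lower and 30.1% higher. The median was −0.17 and that of all genes 0.03. The contrasts of each inhibitor with RANKL alone share the same 3 RANKL libraries, and the contrast of RANKL with M-CSF uses them too, so values are given side by side below and no overlap between contrasts is counted.

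**Figure D1:**
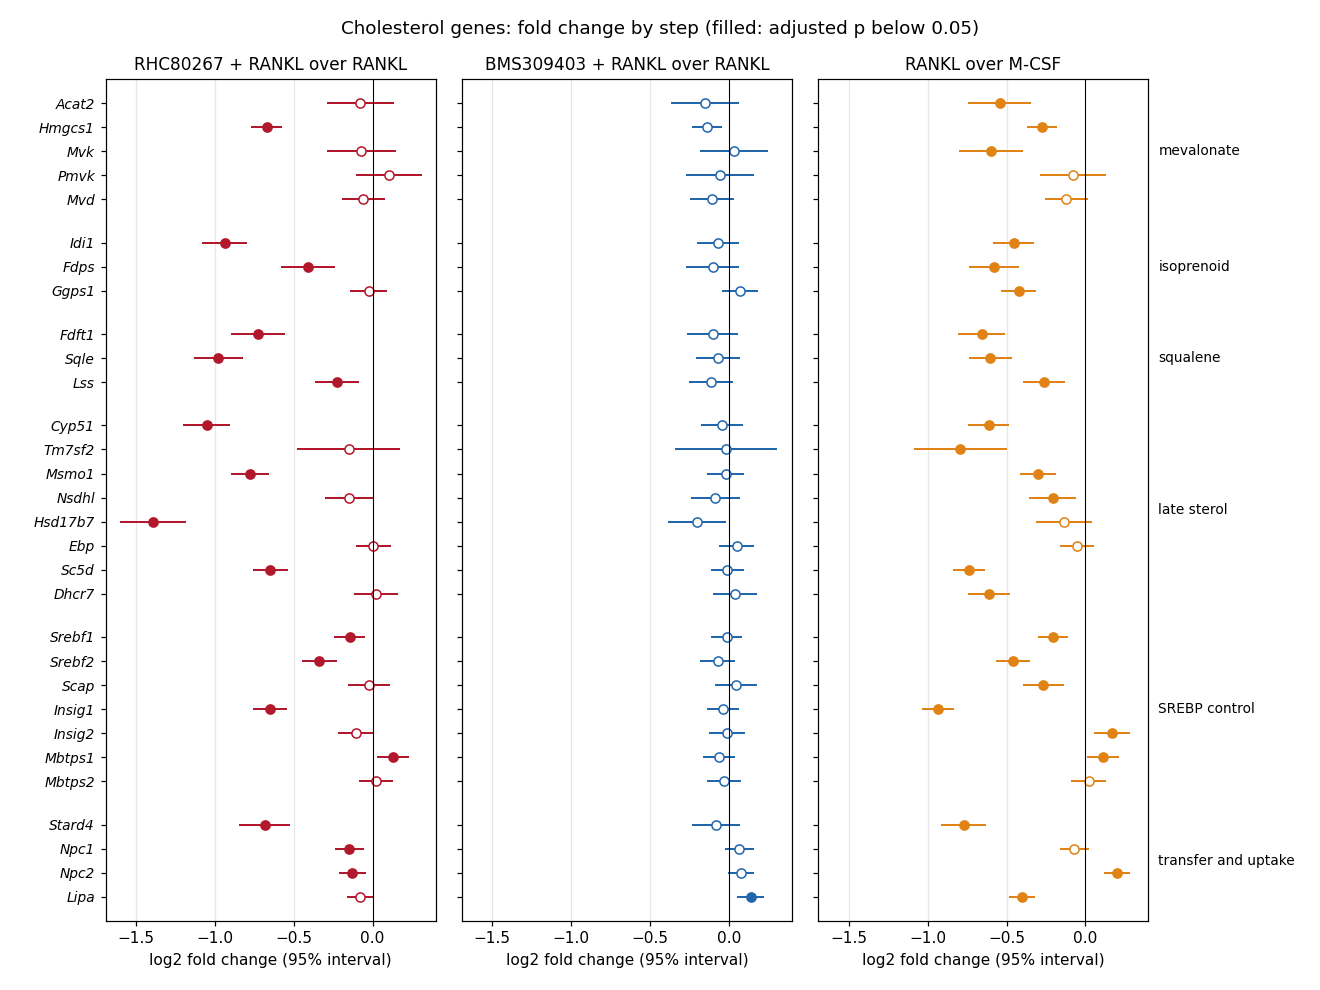
Log2 fold change with its 95% interval for each of the 30 genes, by step from top to bottom, in RHC80267 with RANKL over RANKL, BMS309403 with RANKL over RANKL, and RANKL over M-CSF. Filled points are called. In the left panel the values reach −1.39 at Hsd17b7, in the middle panel all lie between −0.20 and 0.14, and in the right panel 21 filled points lie below 0.

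The first step list holds 5 enzymes that lead to isopentenyl diphosphate. Hmgcs1, the synthase that makes HMG-CoA (gene 208715, chromosome 13, 119690351 to 119708260, GRCm38), had 90.7, 81.5 and 90.6 CPM with RHC80267, 126, 130 and 123 CPM with BMS309403, 145, 138 and 135 CPM with RANKL alone, and 172, 169 and 166 CPM with M-CSF alone. The 3 RHC80267 libraries lay below all others and the 3 M-CSF libraries above all others, and the BMS309403 libraries lay just below those with RANKL alone. Hmgcs1 fell by 0.67 ± 0.04 (adjusted p = 4.60e-11) with RHC80267 and by 0.28 ± 0.04 (adjusted p = 6.47e-06) with RANKL over M-CSF. With BMS309403 its value was −0.14 (95% interval −0.23 to −0.05), at an adjusted p of 0.05003, just above the threshold, and the call was made when RANKL replicate 3 (−0.16, adjusted p = 0.0399) or RHC80267 replicate 2 (−0.14, adjusted p = 0.0304) was left out.

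Mvk, mevalonate kinase, had 11.8, 10.1 and 10.5 CPM with RHC80267, 11.4, 10.9 and 12.6 CPM with BMS309403, 10.7, 11.4 and 12.1 CPM with RANKL alone, and 15.6, 16.3 and 19.8 CPM with M-CSF alone. It fell with RANKL by 0.60 ± 0.09 (adjusted p = 1.04e-05), and the 3 groups with RANKL overlapped. Acat2, the cytosolic thiolase that joins acetyl-CoA units, had 8.40, 7.47 and 8.09 CPM with RHC80267, 8.29, 6.80 and 7.72 CPM with BMS309403, 8.14, 7.95 and 9.23 CPM with RANKL alone, and 12.8, 12.02 and 12.1 CPM with M-CSF alone. The M-CSF libraries stood above the rest, and Acat2 fell with RANKL by 0.54 ± 0.09 (adjusted p = 2.85e-05). The inhibitors gave −0.07 (95% interval −0.28 to 0.14) for Mvk and −0.08 (95% interval −0.29 to 0.13) for Acat2 with RHC80267, and 0.03 (95% interval −0.18 to 0.24) and −0.15 (95% interval −0.36 to 0.06) with BMS309403. Pmvk, phosphomevalonate kinase, and Mvd, the decarboxylase that follows, were called in no contrast. Pmvk ranged from 10.6 to 15.2 CPM and Mvd from 23.3 to 30.5 CPM over the 12 libraries. Their values were 0.10 (95% interval −0.10 to 0.30) and −0.06 (95% interval −0.19 to 0.07) with RHC80267, and −0.08 (95% interval −0.28 to 0.13) and −0.12 (95% interval −0.25 to 0.01) with RANKL over M-CSF. Of the 5 genes of this step, 1 fell with RHC80267 and 3 fell with RANKL, where 23% and 29.8% of all genes tested were called lower.

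The isoprenoid step turns isopentenyl diphosphate into longer chains. Idi1, the isomerase (gene 319554, chromosome 13, 8884914 to 8892396), had 31.7, 26.1 and 32.3 CPM with RHC80267, 54.8, 57.1 and 52.2 CPM with BMS309403, 58.6, 54.9 and 59.1 CPM with RANKL alone, and 80.1, 82.1 and 74.3 CPM with M-CSF alone. The RHC80267 libraries lay far below the others, with no overlap, and RHC80267 replicate 2 was the lowest. Idi1 fell by 0.94 ± 0.07 (adjusted p = 1.34e-10) with RHC80267 and by 0.45 ± 0.06 (adjusted p = 6.68e-07) with RANKL over M-CSF. With BMS309403 the value was −0.07 (95% interval −0.20 to 0.05), and the difference between the inhibitors was −0.87 ± 0.07 (adjusted p = 3.38e-10).

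Fdps, the bisphosphonate target farnesyl diphosphate synthase (gene 110196, chromosome 3, 89093588 to 89101967), had 36.5, 26.7 and 34.5 CPM with RHC80267, 40.7, 38.0 and 42.0 CPM with BMS309403, 46.5, 40.4 and 42.8 CPM with RANKL alone, and 63.5, 64.1 and 66.2 CPM with M-CSF alone. It fell by 0.41 ± 0.08 (adjusted p = 0.000201) with RHC80267 and by 0.58 ± 0.07 (adjusted p = 5.09e-07) with RANKL over M-CSF. RHC80267 replicate 2, at 26.7 CPM, was the lowest of the 12 libraries. Without that library the fall was 0.28, and the difference between the inhibitors was −0.18 (adjusted p = 0.0238) in place of −0.30 ± 0.08 (adjusted p = 0.0028). Ggps1, which makes geranylgeranyl diphosphate for small GTPases, had 27.7, 28.3 and 30.5 CPM with RHC80267, 30.4, 31.2 and 30.8 CPM with BMS309403, 29.5, 29.3 and 29.3 CPM with RANKL alone, and 40.0, 39.4 and 38.5 CPM with M-CSF alone. Ggps1 fell with RANKL by 0.42 ± 0.05 (adjusted p = 2.38e-07) and was not called with RHC80267, at −0.03 (95% interval −0.13 to 0.08), or with BMS309403, at 0.07 (95% interval −0.04 to 0.18).

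The squalene step commits carbon to sterols. Fdft1, squalene synthase, had 17.9, 14.1 and 16.2 CPM with RHC80267, 24.5, 25.8 and 24.1 CPM with BMS309403, 27.7, 26.6 and 25.6 CPM with RANKL alone, and 38.2, 43.6 and 44.3 CPM with M-CSF alone. Sqle, squalene epoxidase, which controls flux in many cells (gene 20775, chromosome 15, 59315092 to 59331193), had 22.0, 16.7 and 21.2 CPM with RHC80267, 38.8, 37.3 and 36.4 CPM with BMS309403, 39.8, 40.0 and 38.3 CPM with RANKL alone, and 58.4, 58.9 and 62.0 CPM with M-CSF alone. In both genes the RHC80267 libraries were the lowest 3 and the M-CSF libraries the highest 3 of the 12. Fdft1 fell by 0.73 ± 0.08 (adjusted p = 1.34e-07) and Sqle by 0.98 ± 0.07 (adjusted p = 2.59e-10) with RHC80267. RANKL over M-CSF lowered them by 0.66 ± 0.07 and 0.60 ± 0.06. With BMS309403 they had −0.10 (95% interval −0.26 to 0.05) and −0.07 (95% interval −0.21 to 0.07). Lss, lanosterol synthase, which closes the sterol rings, averaged 20.2 ± 0.788 CPM with RHC80267, 21.8 ± 0.693 CPM with BMS309403, 23.6 ± 1.70 CPM with RANKL alone and 28.3 ± 0.811 CPM with M-CSF alone (SD, n = 3 each). Lss fell by 0.22 ± 0.06 (adjusted p = 0.00626) with RHC80267 and by 0.26 ± 0.06 (adjusted p = 0.000805) with RANKL. The counts of Fdft1 carry a limit, since its gene overlaps the far more abundant Ctsb by 774 bases on the other strand, the labels do not say whether counting used strand, and its expected counts were not whole in all 12 libraries, which is how reads shared with other features appear. Idi1, Acat2 and Npc1 also had such counts, in 12, 10 and 8 libraries. Cyp51 lies within the span of Akap9 on the other strand, and Nsdhl, Ebp, Srebf1 and Npc1 overlap a neighbour on the other strand. Pmvk, Tm7sf2, Mbtps2 and Nsdhl overlap a neighbour on the same strand. The same-strand neighbour of Nsdhl, Gm14685, is also the neighbour of Ebp and had a mean of 0.167 counts. Of these genes Npc1 had counts that were not whole, and the others had whole counts in all 12 libraries.

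**Figure D2:**
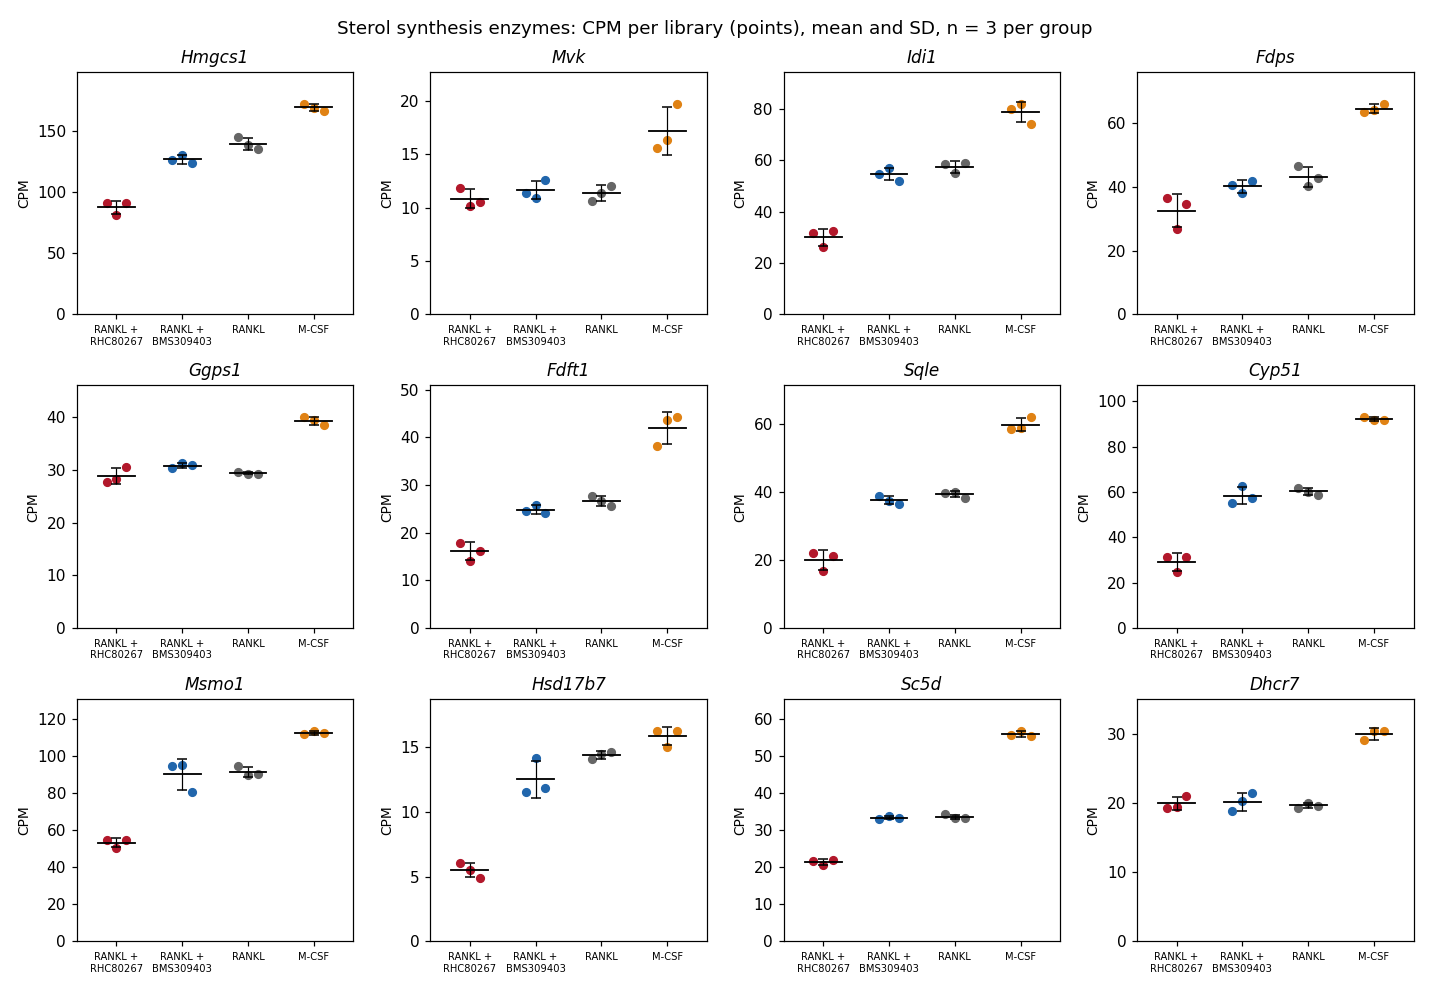
CPM in each library (points) with the mean and SD of 3 libraries for 12 enzymes, with groups from left to right RANKL with RHC80267, RANKL with BMS309403, RANKL alone and M-CSF alone. All axes start at 0. In Cyp51 the RHC80267 libraries sit between 24.5 and 31.4 CPM and the RANKL libraries between 58.8 and 61.8, whereas in Dhcr7 both groups sit between 19.3 and 21.1.

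The late sterol step holds 8 enzymes that trim lanosterol to cholesterol, of which 4 fell with RHC80267 and 6 with RANKL. Over all genes tested, 23% were called lower with RHC80267 and 29.8% with RANKL. Cyp51, the lanosterol demethylase (gene 13121, chromosome 5, 4080674 to 4104697), had 31.2, 24.5 and 31.4 CPM with RHC80267, 55.2, 62.5 and 57.4 CPM with BMS309403, 61.8, 60.1 and 58.8 CPM with RANKL alone, and 93.0, 91.6 and 91.6 CPM with M-CSF alone. Hsd17b7, the sterol ketone enzyme (gene 15490, chromosome 1, 169949535 to 169969242), had 6.03, 5.50 and 4.94 CPM with RHC80267, 11.6, 14.2 and 11.9 CPM with BMS309403, 14.1, 14.5 and 14.7 CPM with RANKL alone, and 16.3, 15.04 and 16.3 CPM with M-CSF alone. Both genes had their lowest 3 libraries with RHC80267, with no overlap with another group. Hsd17b7 fell by 1.39 ± 0.10 (adjusted p = 1.71e-10) and Cyp51 by 1.05 ± 0.07 (adjusted p = 3.52e-11), which were the largest of the 30 changes with RHC80267. The printed windows of both genes carry TCACCTCA, but they were printed because of these large changes. The letters were chosen after the windows had been read, and no link between letters and changes was tested. RANKL over M-CSF lowered Cyp51 by 0.61 ± 0.06 (adjusted p = 9.52e-09), but Hsd17b7 was not called there, at −0.14 (95% interval −0.31 to 0.03). BMS309403 gave −0.04 (95% interval −0.17 to 0.08) for Cyp51 and −0.20 (95% interval −0.38 to −0.02) for Hsd17b7, with adjusted p = 0.181 for Hsd17b7.

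Msmo1, the methylsterol oxidase, had 54.5, 50.5 and 54.9 CPM with RHC80267, 94.6, 95.2 and 80.5 CPM with BMS309403, 94.3, 89.6 and 90.4 CPM with RANKL alone, and 112, 114 and 112 CPM with M-CSF alone. It fell by 0.78 ± 0.06 (adjusted p = 1.70e-10) with RHC80267 and by 0.30 ± 0.05 (adjusted p = 3.30e-05) with RANKL. Sc5d, the lathosterol desaturase, had 21.7, 20.6 and 22.0 CPM with RHC80267, 33.0, 33.7 and 33.4 CPM with BMS309403, 34.3, 33.3 and 33.3 CPM with RANKL alone, and 55.6, 56.9 and 55.6 CPM with M-CSF alone. The RHC80267 libraries were the lowest 3, the M-CSF libraries the highest 3, and BMS309403 overlapped RANKL alone. Sc5d fell by 0.65 ± 0.05 (adjusted p = 9.87e-10) with RHC80267 and by 0.74 ± 0.05 (adjusted p = 4.70e-12) with RANKL, and with BMS309403 had −0.01 (95% interval −0.11 to 0.09).

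Dhcr7, the reductase that makes cholesterol from its last precursor in a branch of the path, had 19.3, 19.5 and 21.1 CPM with RHC80267, 18.8, 20.3 and 21.4 CPM with BMS309403, 19.3, 20.1 and 19.6 CPM with RANKL alone, and 29.1, 30.5 and 30.5 CPM with M-CSF alone. The M-CSF libraries lay above the 9 with RANKL, which overlapped. Dhcr7 fell with RANKL by 0.61 ± 0.06 (adjusted p = 1.58e-08) and had 0.02 (95% interval −0.11 to 0.15) with RHC80267. Tm7sf2, a sterol reductase of the same path, had 2.96, 2.78 and 2.66 CPM with RHC80267, 2.67, 3.01 and 3.53 CPM with BMS309403, 3.28, 2.82 and 3.25 CPM with RANKL alone, and 5.32, 5.26 and 5.62 CPM with M-CSF alone. Its M-CSF libraries lay above the others, and it fell with RANKL by 0.79 ± 0.14 (adjusted p = 3.59e-05). With RHC80267 its value was −0.15 (95% interval −0.47 to 0.17), a wide interval for the least abundant of the 30. Nsdhl, a decarboxylating enzyme, fell with RANKL by 0.21 ± 0.07 (adjusted p = 0.0128), a call that was not made without M-CSF replicate 3 (adjusted p = 0.0646) or without RANKL replicate 2 (adjusted p = 0.0668), and had −0.15 (95% interval −0.30 to 0.00) with RHC80267. The RANKL and M-CSF libraries of Nsdhl overlapped. Ebp, the sterol isomerase, stayed between 50.8 and 56.8 CPM in all 12 libraries and was called in no contrast, with 0.01 (95% interval −0.10 to 0.11) for RHC80267.

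Of the 7 control genes, 3 fell and 1 rose with RHC80267, and 4 fell and 2 rose with RANKL. Over all genes tested, 23% were called lower and 26.9% higher with RHC80267, and 29.8% and 31.4% with RANKL. Srebf2, which encodes the factor that mainly drives cholesterol genes (gene 20788, chromosome 15, 82147269 to 82205379), had 109, 98.3 and 114 CPM with RHC80267, 120, 131 and 135 CPM with BMS309403, 133, 132 and 140 CPM with RANKL alone, and 189, 186 and 184 CPM with M-CSF alone. Srebf1, whose products drive fatty acid genes more strongly, had 54.0, 53.4 and 56.1 CPM with RHC80267, 61.0, 57.5 and 60.5 CPM with BMS309403, 61.9, 57.9 and 60.9 CPM with RANKL alone, and 69.6, 70.8 and 68.3 CPM with M-CSF alone. In both the RHC80267 libraries were the lowest 3 and the M-CSF libraries the highest 3. Srebf2 fell by 0.34 ± 0.05 (adjusted p = 8.76e-06) and Srebf1 by 0.15 ± 0.04 (adjusted p = 0.00919) with RHC80267. RANKL over M-CSF lowered Srebf2 by 0.46 ± 0.05 (adjusted p = 3.15e-08) and Srebf1 by 0.21 ± 0.04 (adjusted p = 0.000264). With BMS309403 the values were −0.07 (95% interval −0.18 to 0.03) and −0.01 (95% interval −0.11 to 0.08). The Srebf1 difference between the inhibitors, −0.13 ± 0.04 (adjusted p = 0.0159), was lost without RHC80267 replicate 2 (−0.12, adjusted p = 0.0609).

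Insig1, the INSIG gene that SREBP factors themselves induce (gene 231070, chromosome 5, 28071412 to 28078662), had 53.5, 50.5 and 58.4 CPM with RHC80267, 85.3, 82.7 and 80.1 CPM with BMS309403, 85.1, 84.0 and 85.6 CPM with RANKL alone, and 157, 167 and 164 CPM with M-CSF alone. The M-CSF libraries stood alone at the top and the RHC80267 libraries alone at the bottom. Insig1 fell with RANKL over M-CSF by 0.93 ± 0.04 (adjusted p = 5.80e-14), the largest change of the 30 in that contrast, and by 0.65 ± 0.05 (adjusted p = 3.94e-10) with RHC80267. Its relative Insig2 (gene 72999, chromosome 1, 121304353 to 121332662) had 31.9, 30.5 and 30.4 CPM with RHC80267, 33.4, 32.4 and 33.2 CPM with BMS309403, 33.4, 33.1 and 33.4 CPM with RANKL alone, and 31.4, 28.6 and 28.8 CPM with M-CSF alone. Insig2 went the other way in the RANKL contrast, rising by 0.17 ± 0.05 (adjusted p = 0.00785), with all 3 RANKL libraries above all 3 of M-CSF. With RHC80267 Insig2 had −0.11 (95% interval −0.22 to 0.00) and no library of the RHC80267 group reached those of RANKL alone, but the gene was not called (adjusted p = 0.0901). It was called lower when only the groups compared were fitted (−0.13, adjusted p = 0.0478).

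Scap, the escort of the SREBP factors, had 43.1, 39.0 and 42.0 CPM with RHC80267, 42.1, 40.0 and 48.0 CPM with BMS309403, 42.8, 43.6 and 39.6 CPM with RANKL alone, and 50.8, 50.8 and 49.9 CPM with M-CSF alone. It fell with RANKL by 0.27 ± 0.06 (adjusted p = 0.000577), and the 3 groups with RANKL overlapped, at −0.02 (95% interval −0.15 to 0.11) with RHC80267 and 0.05 (95% interval −0.08 to 0.17) with BMS309403. The proteases that cut SREBP moved little. Mbtps1, the site-1 protease, averaged 102 ± 1.77 CPM with RHC80267, 89.3 ± 6.46 CPM with BMS309403, 93.3 ± 1.27 CPM with RANKL alone and 86.3 ± 3.23 CPM with M-CSF alone. It was the single gene of the 30 to rise with RHC80267, by 0.13 ± 0.05 (adjusted p = 0.0232), a call lost without RANKL replicate 2, RHC80267 replicate 2 or RHC80267 replicate 3 (adjusted p from 0.0647 to 0.110). It also rose with RANKL over M-CSF, by 0.11 ± 0.05 (adjusted p = 0.0421), a call that DESeq2 did not make (adjusted p = 0.0718), that was absent with no filter on low counts (adjusted p = 0.0527), and absent without M-CSF replicate 2 or 3 or any 1 of the RANKL libraries. Mbtps2, the site-2 protease, was called in no contrast and stayed between 48.0 and 55.5 CPM.

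**Figure D3:**
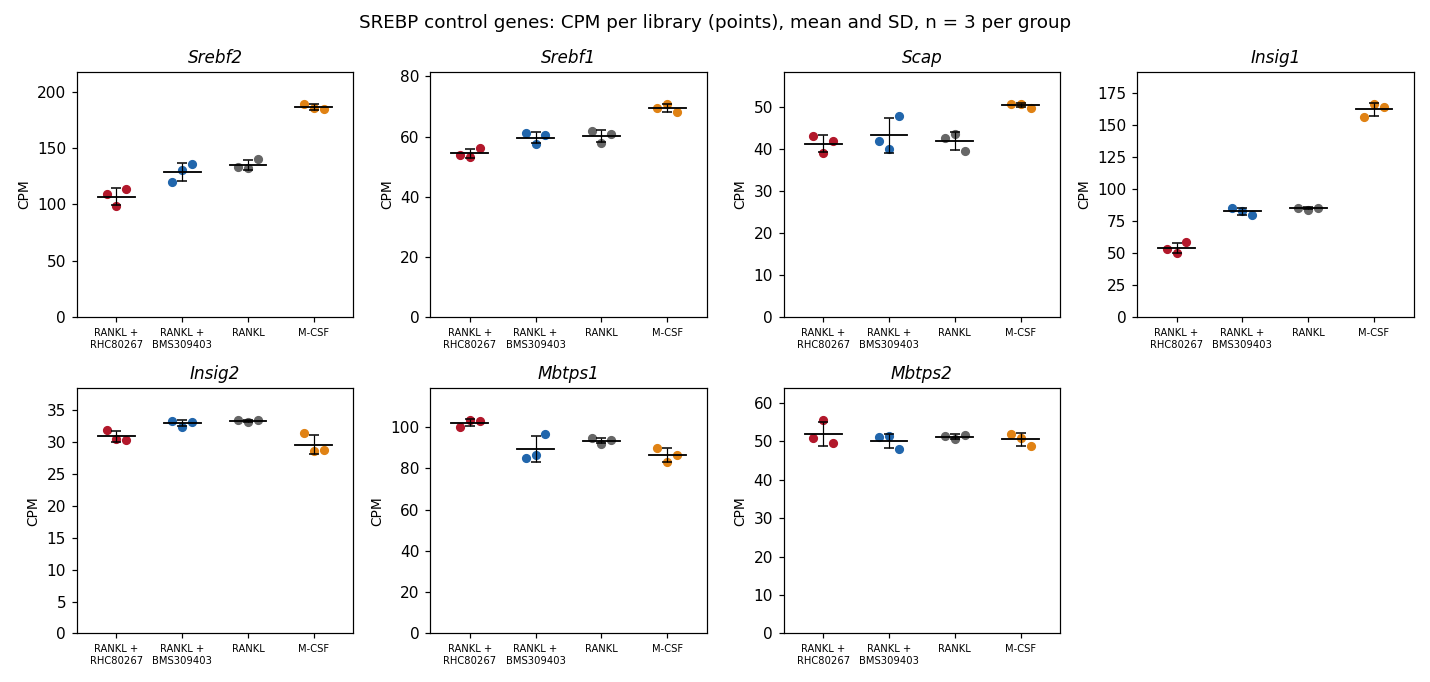
CPM in each library (points) with the mean and SD of 3 libraries for the 7 control genes, with groups from left to right RANKL with RHC80267, RANKL with BMS309403, RANKL alone and M-CSF alone. Insig1 steps between 3 levels, with 50.5 to 58.4 CPM under RHC80267, 80.1 to 85.6 CPM under BMS309403 or RANKL alone, and 157 to 167 CPM under M-CSF, while Insig2 stays between 28.6 and 33.4 CPM.

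Sterol movement was described by 4 genes. Stard4, which carries cholesterol between membranes and is itself a target of SREBP factors, had 28.5, 21.4 and 29.6 CPM with RHC80267, 39.0, 40.5 and 41.2 CPM with BMS309403, 43.6, 42.7 and 41.6 CPM with RANKL alone, and 72.8, 73.2 and 72.5 CPM with M-CSF alone. Its RHC80267 libraries were the lowest 3 and its M-CSF libraries the highest 3 of the 12, with RHC80267 replicate 2 the lowest of all. Stard4 fell by 0.69 ± 0.07 (adjusted p = 1.44e-07) with RHC80267, or by 0.55 without that library, and by 0.77 ± 0.07 (adjusted p = 1.25e-09) with RANKL over M-CSF. BMS309403 gave −0.08 (95% interval −0.23 to 0.06).

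Lipa, which frees cholesterol from the esters of lipoprotein particles (gene 16889, chromosome 19, 34492316 to 34527474), had 1412, 1409 and 1396 CPM with RHC80267, 1590, 1652 and 1652 CPM with BMS309403, 1410, 1511 and 1530 CPM with RANKL alone, and 2014, 1899 and 1964 CPM with M-CSF alone. Lipa fell with RANKL over M-CSF by 0.40 ± 0.04 (adjusted p = 4.55e-09). With BMS309403 all 3 libraries were above all 3 of RANKL alone, and Lipa rose by 0.14 ± 0.04 (adjusted p = 0.0273). That call was lost without RANKL replicate 1 (0.10, adjusted p = 0.182), BMS309403 replicate 2 (0.13, adjusted p = 0.113) or BMS309403 replicate 3 (0.14, adjusted p = 0.0616). RHC80267 gave −0.08 (95% interval −0.16 to −0.00), which was not called (adjusted p = 0.0877). Lipa was called lower with RHC80267 under a stricter filter on low counts (−0.09, adjusted p = 0.0497). The same call was made when only the groups compared were fitted (−0.10, adjusted p = 0.0310). It was also made without M-CSF replicate 1 or 2, RANKL replicate 1 or BMS309403 replicate 1. The inhibitors differed by −0.21 ± 0.04 (adjusted p = 4.64e-05).

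Npc2 and Npc1, the exporters of lysosomal cholesterol, moved by small amounts. Npc2 averaged 1622 ± 65.8 CPM with RHC80267, 1867 ± 46.6 CPM with BMS309403, 1773 ± 26.6 CPM with RANKL alone and 1544 ± 51.4 CPM with M-CSF alone. It rose with RANKL over M-CSF by 0.20 ± 0.04 (adjusted p = 9.94e-05) and fell with RHC80267 by 0.13 ± 0.04 (adjusted p = 0.0074), the second call being lost without RHC80267 replicate 3 (−0.10, adjusted p = 0.0610). Npc1 averaged 369 ± 11.2, 428 ± 8.83, 409 ± 24.1 and 430 ± 13 CPM in the same order of groups. It fell with RHC80267 by 0.15 ± 0.04 (adjusted p = 0.00558) and had −0.07 (95% interval −0.16 to 0.02) with RANKL over M-CSF. Against BMS309403, RHC80267 lowered all 4 genes of sterol movement, where 25.5% of all genes tested were called lower.

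**Figure D4:**
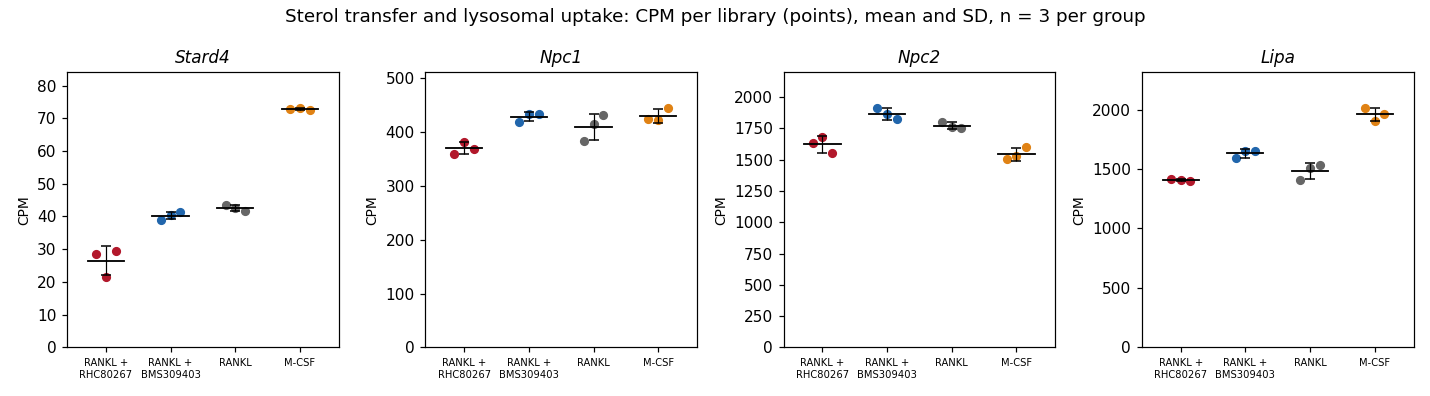
CPM in each library (points) with the mean and SD of 3 libraries for the 4 genes of sterol transfer and lysosomal uptake, with groups from left to right RANKL with RHC80267, RANKL with BMS309403, RANKL alone and M-CSF alone. Stard4 separates RHC80267 (21.4 to 29.6 CPM) and M-CSF (72.5 to 73.2 CPM) from the groups between them, and Npc2 is lowest under M-CSF.

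The difference between the inhibitors was tested gene by gene. RHC80267 minus BMS309403 was −1.19 ± 0.10 (adjusted p = 2.02e-09) for Hsd17b7, −1.01 ± 0.07 (adjusted p = 4.92e-11) for Cyp51 and −0.91 ± 0.07 (adjusted p = 6.06e-10) for Sqle. The next were Idi1 at −0.87 ± 0.07, Msmo1 at −0.76 ± 0.06, Sc5d at −0.64 ± 0.05, Fdft1 at −0.62 ± 0.08, Insig1 at −0.61 ± 0.05, Stard4 at −0.60 ± 0.08 and Hmgcs1 at −0.53 ± 0.04. Several enzymes were not called between the inhibitors, with −0.10 (95% interval −0.31 to 0.11) for Mvk, 0.07 (95% interval −0.14 to 0.28) for Acat2, −0.02 (95% interval −0.15 to 0.12) for Dhcr7 and −0.04 (95% interval −0.14 to 0.06) for Ebp. Mbtps1 was higher with RHC80267 than with BMS309403, by 0.19 ± 0.05 (adjusted p = 0.00124).

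The step medians of the log2 fold changes describe the path as a whole. With RHC80267 they were −0.07 for the mevalonate step, −0.41 for isoprenoids, −0.73 for squalene, −0.40 for late sterols, −0.11 for control genes and −0.14 for transfer and uptake. With BMS309403 they were −0.11, −0.07, −0.10, −0.02, −0.03 and 0.07 for the same steps. With RANKL over M-CSF they were −0.28, −0.45, −0.60, −0.45, −0.21 and −0.24. These are medians of 3 to 8 genes each, and no test was made on them.

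Levels between genes are compared per length, in TPM as deposited. With RANKL alone the lysosomal genes were the most abundant, Npc2 at 869 ± 10.6 and Lipa at 807 ± 37.6 TPM (SD, n = 3), and Npc1 followed at 121 ± 7.50 TPM. Msmo1 (86.5 ± 2.28 TPM), Fdps (66.3 ± 4.53 TPM) and Hmgcs1 (62.7 ± 2.04 TPM) were the most abundant enzymes, and the SDs of Fdps and Hmgcs1 overlapped. Hsd17b7 (4.93 ± 0.161 TPM) and Tm7sf2 (3.88 ± 0.297 TPM) were at the low end. Hsd17b7, which changed most with RHC80267, went to 1.95 ± 0.160 TPM there, the lowest of any gene in any group.

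**Figure D5:**
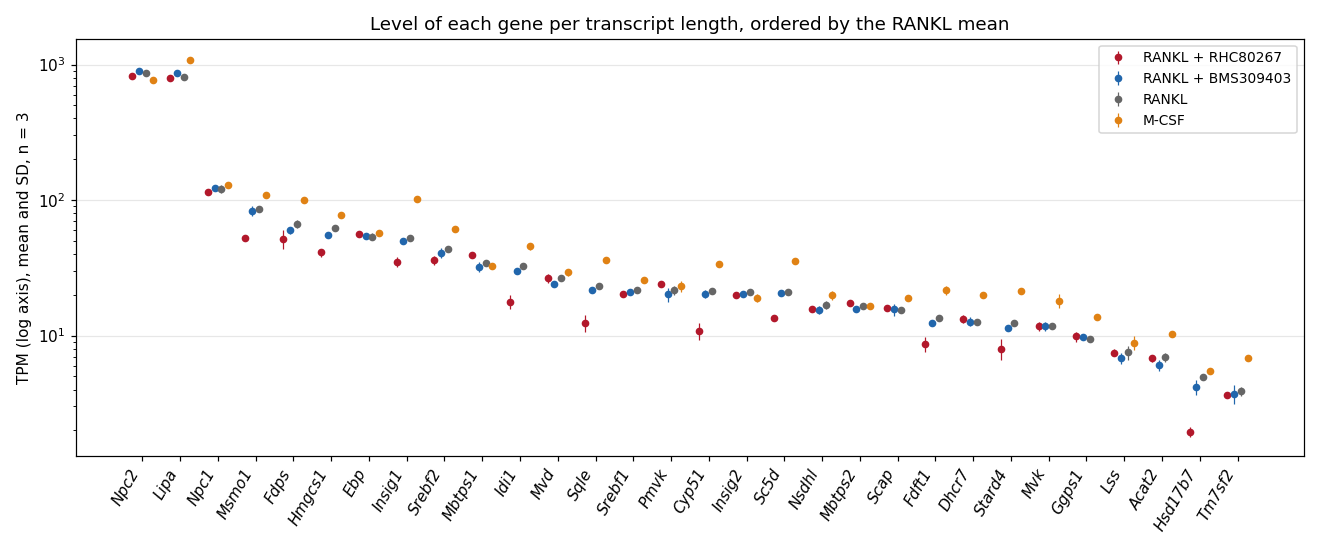
Mean and SD of TPM over 3 libraries for each of the 30 genes on a log axis, ordered by the mean with RANKL alone, with the 4 groups side by side in the order RANKL with RHC80267, RANKL with BMS309403, RANKL alone and M-CSF alone. Npc2 and Lipa sit between 770 and 1085 TPM in all groups, and Hsd17b7 has the lowest point of all, 1.95 TPM with RHC80267.

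Neighbouring pathways were counted from lists of their own. Of 16 genes that use isoprenoids, 5 rose and 3 fell with RHC80267, where 26.9% of all genes were called higher and 23% lower. With RANKL over M-CSF 7 rose and 2 fell, where 31.4% of all genes were called higher and 29.8% lower. With BMS309403 edgeR called 0, and at an unadjusted p below 0.05 1 was lower, where 1269 of all 12168 genes tested were lower. Fnta, the shared subunit of the farnesyl and geranylgeranyl transferases, fell by 0.23 ± 0.04 with RHC80267, and Pdss2, which helps to build the tail of ubiquinone, rose by 0.45 ± 0.11. With RANKL its partner Pdss1 rose by 1.02 ± 0.15 and Nus1, needed for dolichol, by 0.65 ± 0.04.

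Of 9 genes for the sterol-regulated degradation of proteins at the endoplasmic reticulum, 3 rose and 4 fell with RHC80267 (26.9% and 23% of all genes), and 3 rose and 3 fell with RANKL (31.4% and 29.8% of all genes). With BMS309403 edgeR called 0, and at an unadjusted p below 0.05 2 were lower, where 1269 of all 12168 genes tested were lower. The ubiquitin ligase gene Rnf139 fell by 0.30 ± 0.05 and Erlin1, part of a membrane complex of this process, by 0.33 ± 0.06 with RHC80267. Of 17 tested genes for sterol transfer, esterification and storage, 6 rose and 5 fell with RHC80267, 2 rose with BMS309403, and 4 rose and 8 fell with RANKL, to be read against the same shares and, for BMS309403, 3.49% of all genes called higher and 3.74% lower. Soat1, which makes cholesteryl esters, rose by 0.17 ± 0.04 and Nceh1, which can cleave them, by 0.16 ± 0.04 with BMS309403. With RHC80267 Nceh1 fell by 0.67 ± 0.04 and Gramd1b, which brings plasma membrane cholesterol to the endoplasmic reticulum, by 0.59 ± 0.06. The lipoprotein receptor gene Scarb1 fell by 0.78 ± 0.04 with RANKL. Of 12 mitosis genes, 11 were higher with RHC80267 (median 0.44), where 26.9% of all genes were higher, and 7 were lower with BMS309403 (median −0.34), where 3.74% of all genes were lower. With RANKL 3 were higher and 4 lower, where 31.4% and 29.8% of all genes were. The part of cell division in the results was not tested.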

How the data were processed

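The counts per gene and library deposited by the authors are taken to be estimated counts of the kind RSEM makes, because between 9.49% and 9.89% of the values in a library were not whole numbers. The authors' deposited TPM values were used for levels between genes. The authors' log2 fold changes and q-values (adjusted p-values) are in the deposited table, and only counts of their calls are given. The submitters' processing notes name Bowtie2, RSEM 1.3.1 and DESeq2 1.4.5. Whether counting used strand is not given in the sources used here, and 24 other columns of per-library values were not used.

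Expected counts were rounded to whole numbers. filterByExpr by group removed 4402 of 16570 genes and left 12168. All 12 libraries entered 1 edgeR 4.0.16 quasi-likelihood fit (R 4.3.3) with TMM factors and a term for group alone, which left 8 residual degrees of freedom. Calls used a threshold of 0.05 on p-values adjusted by Benjamini-Hochberg across the whole table tested. The biological coefficient of variation was 0.0371. All tests are 2-sided. Per-library values are given for genes called in any contrast with an absolute log2 fold change of at least 0.3 and for the 5 regulators Srebf1, Srebf2, Scap, Insig1 and Insig2. Alternatives were DESeq2 1.42.0, RLE factors, limma-voom (limma 3.58.1), no filter, a stricter one (1 CPM or more in 3 or more libraries), a fit of just the groups compared, a replicate block, and each library left out. The genes and lists were chosen with earlier results of these data known.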

Additional observations from a re-analysis of the deposited data

How the results depend on the processing

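No direction of a called gene reversed under any alternative run. The counts of genes called higher and lower kept within 1.5 times of those reported under DESeq2, RLE factors, limma-voom, no filter, the stricter filter, only the groups compared and the replicate block. With each library left out in turn, RHC80267 over RANKL gave 0 to 1 genes higher and 15 to 19 lower, with 5303 to 6128 called over all genes. BMS309403 over RANKL gave 0 to 1 higher and 0 to 1 lower, with 263 to 1011 called over all genes, against 880 with all libraries, and the lowest counts were 263 without RANKL replicate 1 and 316 without BMS309403 replicate 2. RANKL over M-CSF gave 2 to 3 higher and 20 to 22 lower, with 6827 to 7496 over all genes. RHC80267 over BMS309403 gave 1 higher in every such fit and 15 to 17 lower, with 5992 to 6809 over all genes. Fitting only the groups compared gave 19 lower with RHC80267 over RANKL, the added genes being Lipa, Insig2 and Nsdhl, and the cause was not tested. Ggps1 was called between the inhibitors only without RHC80267 replicate 3 (−0.14, adjusted p = 0.0498), and Npc1 in the RANKL contrast only without RANKL replicate 3 (−0.11, adjusted p = 0.0410). Libraries with the same replicate number did not deviate together, since the 18 pairs had correlations of −0.134 to 0.0965, so the numbers were not taken as pairing. With the replicate block the counts for the 30 genes were 1 higher and 16 lower, 1 and 0, 3 and 21, and 1 and 16, and 6044, 859, 7384 and 6727 genes were called over all, in the order RHC80267 over RANKL, BMS309403 over RANKL, RANKL over M-CSF and RHC80267 over BMS309403. Counts of 47 to 100 limit the precision of Tm7sf2, which had the largest SE of the 30 genes in all 4 contrasts.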

Other observations

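The spread between the 3 RHC80267 libraries was wide in some of the genes that fell with it. The coefficient of variation of CPM with RHC80267 was 16.7% for Stard4, 15.9% for Fdps, 14.4% for Sqle, 13.6% for Cyp51, 11.9% for Fdft1 and 11.4% for Idi1. In the RANKL libraries it was 2.26%, 7.16%, 2.41%, 2.49%, 3.91% and 4.00% for the same genes. In all 6 genes RHC80267 replicate 2 was the lowest library. Some other genes that fell had closer libraries under RHC80267, with 3.52% for Sc5d, 4.62% for Msmo1, 6.01% for Hmgcs1 and 7.32% for Insig1. RHC80267 replicate 2 was the lowest library in these genes too, and in Srebf1 and Srebf2. Hsd17b7, at 9.93%, and Npc2 had their lowest level in RHC80267 replicate 3, and Lss and Npc1 in replicate 1. These genes were picked after their values were seen, and no test was made.

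RANKL replicate 2 had the lowest level of its group in 16 of the 30 genes and in 29.8% of all genes.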
